A study of Mus musculus with 6 samples.

Results

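The genes described here carry the symbols of proteins of the cytosolic ribosome and of the mitochondrial ribosome. They were chosen by symbol alone, as every gene in the expression table named Rps or Rpl with a number, Rplp0 to Rplp2, or Mrps or Mrpl with a number. The rule found 155 of the 23361 symbols in the table, of which 79 were cytosolic (49 large-subunit and 30 small-subunit genes) and 76 were mitochondrial (47 large-subunit and 29 small-subunit genes). Membership and classes follow the symbol, and whether each product sits in a ribosome was not checked. In the mammalian mitochondrial ribosome the proteins of Mrps30 and Mrps18a are known to sit in the large subunit, but both genes are counted by their names here.

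SMC, the SCLC metastasizing cell, is the study's name for cells with high NCAM and low or no CD44 that were sorted from lung tumours of mice with floxed Rb1 and Trp53 and then grown as a cell line. SCLC is small-cell lung cancer. The line has a mixed background of C57Bl/6, Balb-c and S129 and was otherwise untreated. The groups are the line without TAZ4SA (SMC-Ctrl, 3 libraries) and the line overexpressing TAZ4SA, a constitutively active form of the transcriptional co-activator TAZ brought in by virus under drug selection (SMC-TAZ4SA, 3 libraries). By the sample labels both groups come from 1 line of tumour cells with Rb1 and Trp53 deleted. What the control cells carried is not given in the labels. Whether libraries of a group are separate cultures is not stated, and p-values here cover no more than the spread of these 6 libraries, possibly a technical one. The study's data statement lists these data as SMC against another cell population, while the sample titles and the design text give SMC-Ctrl against SMC-TAZ4SA. The titles were followed.

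The cytosolic ribosome makes nearly all proteins of the cell, and the mitochondrial ribosome makes the few that mitochondrial DNA encodes. Each ribosome takes up its proteins in fixed numbers, in most cases one copy of each, and ribosomal protein mRNAs are among the most abundant in growing cells. Cytosolic ribosomal protein genes have left many processed pseudogenes in mammalian genomes, which are intronless copies made from their mRNAs. Many of their mRNAs start with a run of pyrimidines, the 5' TOP element, through which mTOR signalling controls their translation.

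Marker genes outside the 2 families were read beside the labels. Wwtr1, which encodes TAZ, was at 0.105 to 0.162 FPKM (fragments per kilobase of transcript, scaled to the mapped fragments of the library) in SMC-Ctrl and at 31.7 to 36.0 FPKM in SMC-TAZ4SA. Of 6 neuroendocrine markers, 5 were lower in SMC-TAZ4SA and Ncam1 was higher, and their summed level was 1353 to 1466 FPKM in SMC-Ctrl and 189 to 199 FPKM in SMC-TAZ4SA. Ncam1 encodes NCAM, by which the cells were sorted, and the study reports that NCAM protein fell with TAZ4SA, opposite to the mRNA here. All 3 non-neuroendocrine markers (Cd44, Vim and Axl) were higher, with a summed level of 0.261 to 0.302 FPKM in SMC-Ctrl and 1535 to 1800.0 FPKM in SMC-TAZ4SA. The leukocyte markers summed to 0.914 to 1.20 FPKM in SMC-Ctrl and 0.715 to 1.13 FPKM in SMC-TAZ4SA, and the 1 marker that could be tested did not pass. The endothelial markers summed to at most 0.659 and 2.47 FPKM, and the 1 marker that could be tested was called higher (log2 fold change 1.10). Among fibroblast markers Dcn and Lum stayed under 0.2 FPKM, while Col1a1 rose from at most 0.0193 to at least 249 FPKM. The airway and alveolar markers summed to 22.3 to 27.3 FPKM in SMC-Ctrl and 4.23 to 5.93 FPKM in SMC-TAZ4SA, where Scgb1a1 and Sftpc were at 0. Of the 3 that could be tested, 1 was called higher, 1 was called lower and 1 did not pass. The part of this change of marker genes in the values below was not tested. In bulk RNA, fewer cells of a type and less RNA per cell cannot be told apart. Yap1, which encodes YAP, was at 5.53 to 6.57 FPKM in SMC-Ctrl and at 33.2 to 33.9 FPKM in SMC-TAZ4SA. The study reports lower TAZ and YAP and higher neuroendocrine genes in SMC than in the other population of its data statement. These markers therefore cannot tell that comparison from the one in the titles, and which of them holds was not tested.

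The listed levels of the cytosolic genes differed far more among themselves than those of the mitochondrial genes. Mean levels over the 6 libraries ran from 0 to 1307 FPKM for the cytosolic genes, with a median of 14.2 FPKM. The level at the 90th percentile was 1491 times that at the 10th. For the mitochondrial genes the range was 0.839 to 146 FPKM, the median was 35.2 FPKM and the same ratio was 9.40. The 10 highest cytosolic genes, with Rpl8, Rpl4, Rps14, Rps9, Rpl32, Rps21, Rpl41 and Rps2 among them, held 75% of the summed cytosolic FPKM. The 10 highest mitochondrial genes held 32.3% of theirs. FPKM is a level per length, so transcript length is already part of the value.

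Rpl8, a large-subunit protein close to the catalytic centre, was at 948, 1147 and 1078 FPKM in SMC-Ctrl. At the other end, Rps12 and Rps28, which encode small-subunit proteins that every ribosome carries, were listed at 0 in all 6 libraries. Since genes that every cell uses stood at 0, an exact 0 in this table may be a failed estimate, and nothing is read from it as absence of the mRNA. Rpl10l and Rpl39l, paralogues known for their expression in testis, were also listed at 0 in all 6 libraries. A further 8 genes were above 0 somewhere but did not reach 1 FPKM in 3 libraries: Rpl3l, a paralogue known from muscle, and Rpl7a, Rpl9, Rpl12, Rpl28, Rpl37, Rps18 and Mrpl23.

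Low listed levels went with coding sequence that other genes also hold. For each gene the coding sequence was divided into overlapping words of 75 bases, and a word was counted as shared when a transcript of another, non-overlapping gene in GENCODE M21 (GRCm38, the assembly called mm10) held it exactly on either strand. The median cytosolic gene shared 82.4% of its words and 25 of 79 genes shared all of them. The median mitochondrial gene shared 0%, and 57 of 76 shared none. Across the 672 pseudogenes that shared a word with any of the 155 genes, only 10 were listed in the expression table.

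The 19 cytosolic genes that shared under 50% of their words had a median level of 341 FPKM, and 14 of them were at 100 FPKM or more. Their 3 members under 10 FPKM were the paralogues Rpl10l, Rpl39l and Rpl3l. The 60 genes that shared at least 50% had a median of 7.59 FPKM, and 34 of them were under 10 FPKM. Exceptions at 100 FPKM or more were Rpl41, Rps2, Rps20 and Rps26. Across the 79 cytosolic genes Spearman's rho between shared sequence and level was −0.41, and Pearson's r on log2(FPKM + 1) was −0.52. These are descriptions across genes measured in the same libraries, and genes are not independent replicates. The lowest mitochondrial gene, Mrpl23 at 0.839 FPKM, was the only mitochondrial gene with every word shared. How reads that match several places were counted is not given in the sources used here, and the part of shared sequence in the low levels was not tested.

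**Figure D1:**
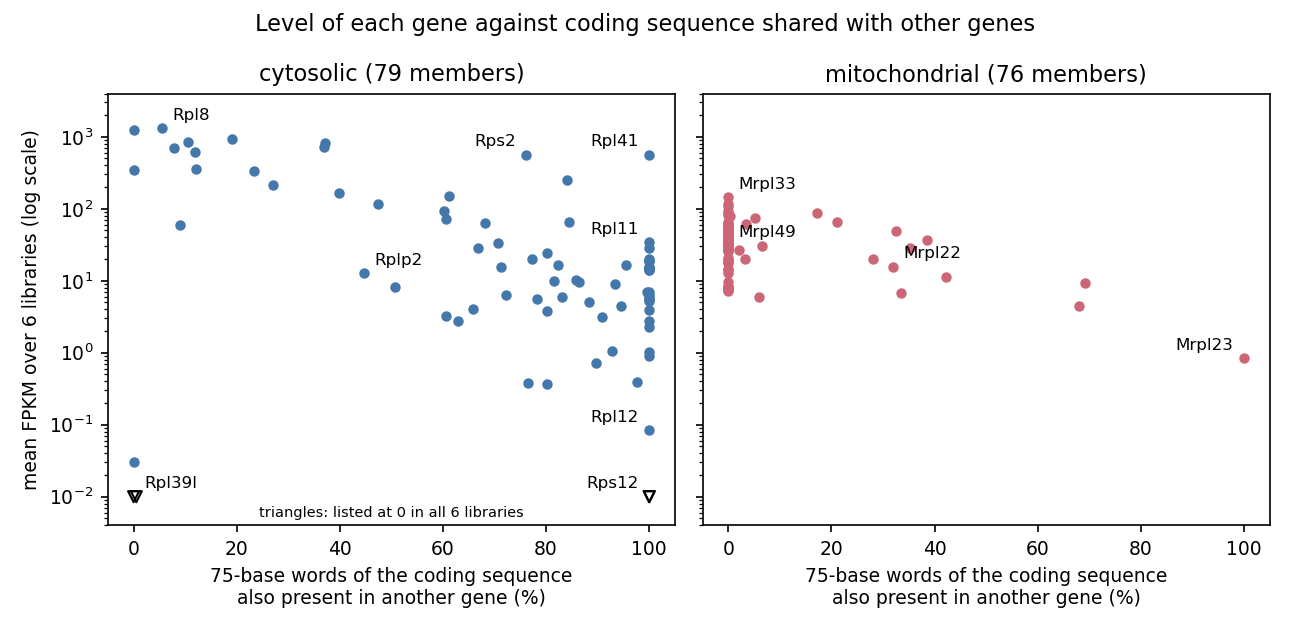
Mean FPKM over 6 libraries (vertical axis, log scale) of each ribosomal protein gene against the percentage of the 75-base words of its coding sequence found in another gene. The cytosolic genes (left, 79 points) run from a median of 341 FPKM below 50% shared to 7.59 FPKM at or above it, most of the mitochondrial genes (right, 76 points) share none, and triangles are the 4 genes listed at 0 in all 6 libraries.

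For some genes a pseudogene copy or a paralogue was listed at a far higher level, and sequences are shown to make plain how close each pair is. They are the first 60 coding bases of 3 genes and the matching bases of a pseudogene or paralogue, 5′ to 3′, from GENCODE M21. Capitals mark the bases of the pseudogene or paralogue that differ from the gene. Positions are counted from 1 at the A of the start codon. Rps15a lies at chr7:118104372-118116188 (minus strand) and its pseudogene Rps15a-ps6 at chr11:6172644-6173036 (minus strand), Rpl31 at chr1:39367842-39371911 (plus strand) and Rpl31-ps12 at chr16:16819749-16820123 (minus strand), and Rpl36a at chrX:134585654-134588062 (plus strand) and its expressed paralogue Rpl36al at chr12:69182731-69184083 (minus strand), all on GRCm38. The pseudogenes differ from their genes by C7T and G55A. Rpl36al differs from Rpl36a at 11 of 60 bases.
Rps15a: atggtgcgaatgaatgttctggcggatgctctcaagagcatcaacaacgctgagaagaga
Rps15a-ps6: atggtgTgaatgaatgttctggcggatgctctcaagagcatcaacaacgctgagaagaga
Rpl31: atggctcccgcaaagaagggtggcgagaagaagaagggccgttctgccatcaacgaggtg
Rpl31-ps12: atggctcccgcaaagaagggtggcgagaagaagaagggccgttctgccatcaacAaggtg
Rpl36a: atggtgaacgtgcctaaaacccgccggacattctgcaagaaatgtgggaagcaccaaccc
Rpl36al: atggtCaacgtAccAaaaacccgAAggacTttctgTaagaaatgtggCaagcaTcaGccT

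Rps15a was at 5.28, 4.46 and 5.27 FPKM in SMC-Ctrl and at 3.17, 2.97 and 2.87 FPKM in SMC-TAZ4SA, while Rps15a-ps6 was at 97.8, 119 and 128 FPKM and at 173, 118 and 109 FPKM. The gene fell and its groups did not overlap (log2 fold change −0.58, SE 0.075, limma adjusted p = 0.000143). The pseudogene's groups overlapped (log2 fold change 0.19, adjusted p = 0.354). Summed over Rps15a, Rps15a-ps6 and a second copy, Rps15a-ps4, the level was 122 ± 15.5 FPKM in SMC-Ctrl and 139 ± 35.4 FPKM in SMC-TAZ4SA (SD, n = 3 each), and Rps15a itself was 4.09% and 2.16% of it. Rpl31 was at 5.46 ± 0.598 and 7.14 ± 1.14 FPKM and Rpl31-ps12 at 51.8 ± 6.41 and 68.6 ± 7.38 FPKM, so the gene was 9.54% of the sum in SMC-Ctrl and 9.43% in SMC-TAZ4SA. Rplp2 was at 10.6 ± 0.833 and 14.7 ± 0.855 FPKM beside 243 ± 31.9 and 341 ± 73.5 FPKM for Rplp2-ps1. In all of these cases the row of the copy carried over 90% of the level. Gm5148, annotated as protein coding, shared 91.3% of the words of Rps23 and was at 112 ± 11.7 and 212 ± 35.0 FPKM beside 12.6 ± 0.594 and 18.8 ± 5.54 FPKM for Rps23.

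Pairs of paralogues also stood at unequal levels. Rpl36a was at 2.07 ± 0.912 and 2.56 ± 0.701 FPKM and its paralogue Rpl36al at 161 ± 14.8 and 245 ± 64.7 FPKM. Rps27, a small-subunit protein, was at 2.15, 1.75 and 2.78 FPKM in SMC-Ctrl and at 6.46, 5.06 and 5.41 FPKM in SMC-TAZ4SA, and Rps27l, a paralogue known as a target of p53, was at 156, 150.5 and 163 FPKM and at 322, 246 and 241 FPKM. Both rose (log2 fold changes 1.05, SE 0.13, adjusted p = 0.000101, and 0.77, SE 0.12, adjusted p = 0.000466). All the words of Rps27 were shared with other genes against 27.0% for Rps27l. Rpl22l1, the paralogue of Rpl22, stayed under 0.7 FPKM in every library. Rpl7l1 rose beside Rpl7 (log2 fold changes 0.82, adjusted p = 1.58e-05, and 0.58, adjusted p = 0.000929). Rpl10, a protein of the tRNA-binding face whose paralogue Rpl10l was listed at 0, was at 4.33 ± 0.621 and 6.45 ± 1.49 FPKM (log2 fold change 0.47, adjusted p = 0.0168), a call that was lost without SMC-Ctrl replicate 2 (0.38, adjusted p = 0.0733) and with libraries at the same total (0.29, adjusted p = 0.068). Rpl39, paralogue of Rpl39l, was called higher although its groups overlapped (0.67, SE 0.27, adjusted p = 0.0449), and the call was lost without any 1 of SMC-Ctrl replicates 2 and 3 and SMC-TAZ4SA replicates 1 and 2 (adjusted p up to 0.169).

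**Figure D2:**
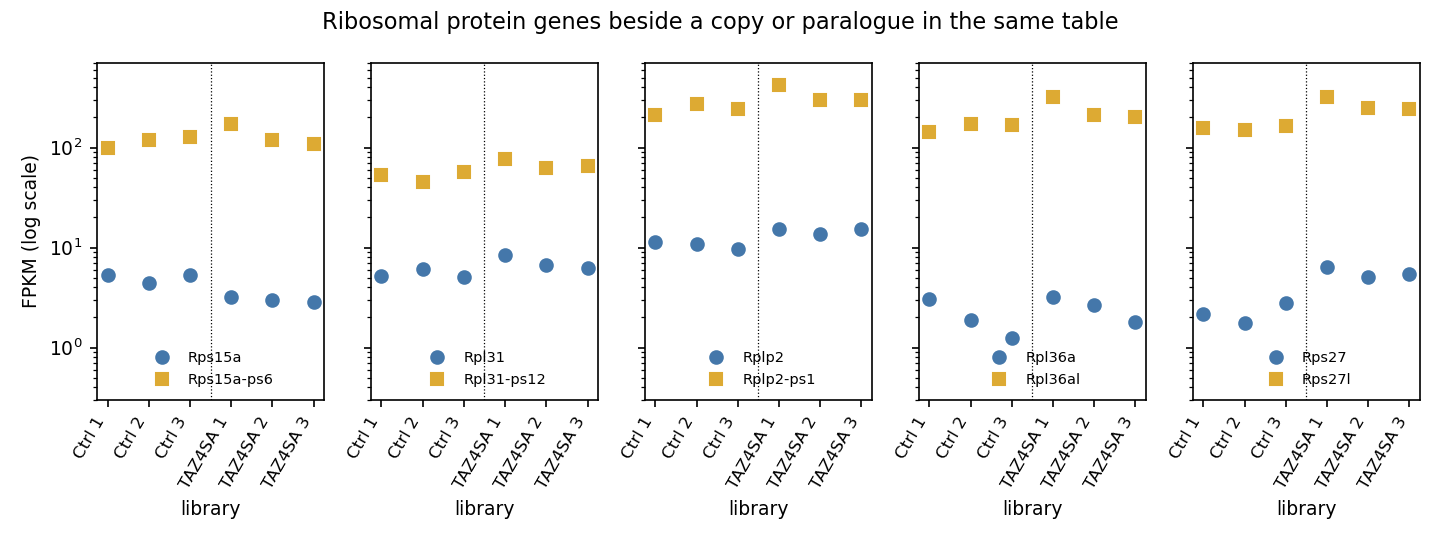
FPKM (log scale) of 5 ribosomal protein genes (circles) and of a pseudogene or paralogue listed in the same table (squares) in each of the 6 libraries, with SMC-Ctrl left and SMC-TAZ4SA right of the dotted line. The pseudogene or paralogue is the higher row in every library, for example 97.8 to 173 FPKM for Rps15a-ps6 against 2.87 to 5.28 FPKM for Rps15a.

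Both families were mostly higher in SMC-TAZ4SA than in SMC-Ctrl. Of the 79 cytosolic genes 68 were tested, the others staying under 1 FPKM in more than 3 libraries. Of the 68, 41 rose and 4 fell, and the median log2 fold change was 0.42. Of the 76 mitochondrial genes 75 were tested, 44 rose and 3 fell, and the median was 0.43. Fold changes are on the log2(FPKM + 1) scale, and called genes passed an adjusted p of 0.05 in limma. Over all 12141 genes tested, 40.7% were called higher and 39.7% lower, with a median log2 fold change of 0.016. The share called higher was 60.3% of the cytosolic and 58.7% of the mitochondrial genes tested, and the share called lower was 5.88% and 4%. Both shares called lower thus lay well below that of all genes, and both shares called higher lay above it, differences that were not tested.

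The 4 subunit classes had medians close to each other. In the cytosolic large subunit 26 of 41 rose and 3 fell (median 0.44), and in the cytosolic small subunit 15 of 27 rose and 1 fell (median 0.34). In the mitochondrial large subunit 26 of 46 rose and 3 fell (median 0.41). In the class of the Mrps genes 18 of 29 rose and the other 11 did not pass the test (median 0.44). The groups did not overlap, with SMC-TAZ4SA higher, for 88 of the 143 members tested, against 41.8% of all genes, and with SMC-TAZ4SA lower for 7, against 40.6%. Only 15 members had a mean at least 2 times that of SMC-Ctrl, and 1 member, Rpl11, had a mean of at most 0.5 times that of SMC-Ctrl.

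**Figure D3:**
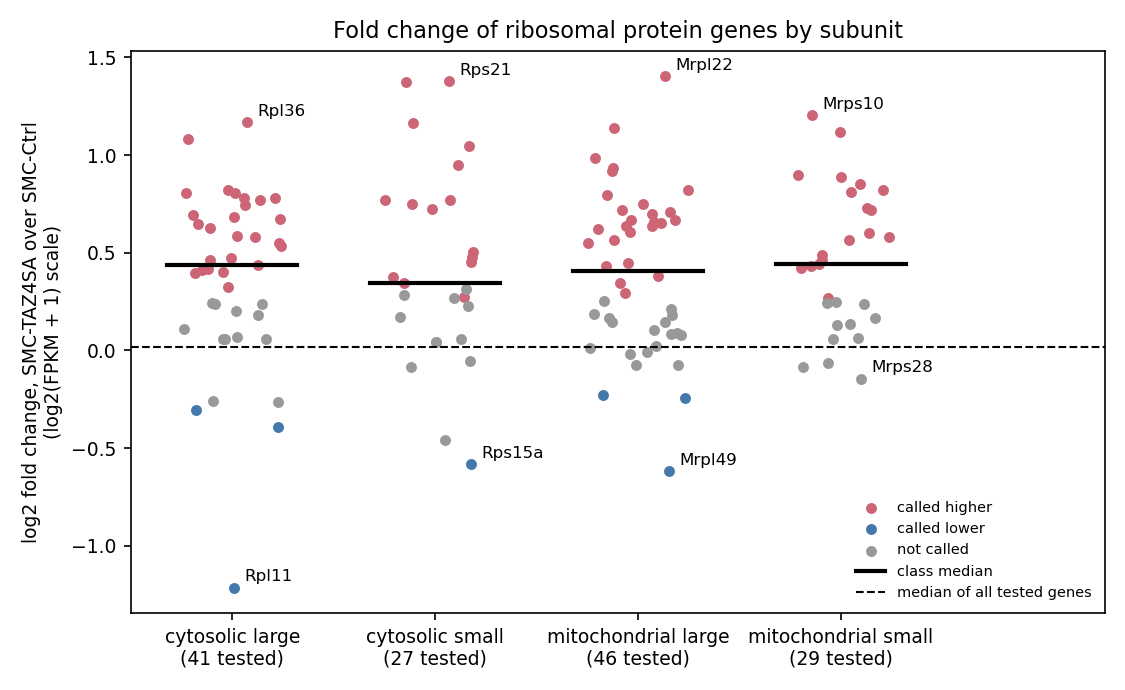
Log2 fold change of SMC-TAZ4SA over SMC-Ctrl on the log2(FPKM + 1) scale for the 143 ribosomal protein genes tested, by subunit class. Points are genes coloured by the limma call at an adjusted p of 0.05, bars are class medians (0.34 to 0.44) and the dashed line is the median of all 12141 genes tested (0.016).

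The libraries of SMC-TAZ4SA were not alike for these genes. Replicate 1 was above the mean of replicates 2 and 3 for 129 of the 143 members tested, with a median ratio of 1.29. On the log2(FPKM + 1) scale it lay 0.38 (median over cytosolic genes) and 0.33 (mitochondrial genes) above its 2 group mates, against 0.04 over all genes tested. Exceptions that were lower in replicate 1 included Rps2 (0.674 times the mean of the others) and Mrps34 (0.547 times). In the other direction Rpl17 stood 1.90 times higher there.

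Without SMC-TAZ4SA replicate 1 the cytosolic genes gave 38 higher and 7 lower calls (median 0.29) and the mitochondrial genes 44 and 6 (median 0.36), where 41.6% of all genes were called higher and 42.0% lower. All 38 and all 44 of these higher calls were also made with every library. The lower calls in the 2 families together went from 7 to 13. The 6 members that were called lower without this library but not with it were Mrpl48, Mrpl53, Rpl22, Rps9, Mrps12 and Rpl27a, with log2 fold changes between −0.41 and −0.19 without it and between −0.26 and −0.06 with it. Mrps12, whose protein is the counterpart of a bacterial protein at the decoding centre, was at 34.4, 38.9 and 35.5 FPKM in SMC-Ctrl and at 40.9, 30.6 and 31.9 FPKM in SMC-TAZ4SA, so that replicate 1 stood above all SMC-Ctrl libraries and the other replicates below them. The higher calls of Rpl39, Rps4x and Rps10 were lost without that library.

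The scale of the libraries and transcript length moved with the groups. The summed FPKM of a library was 284422 to 297034 in SMC-Ctrl and 324938 to 361800.0 in SMC-TAZ4SA. With every library scaled to the same total, the median log2 fold change of all genes was −0.18, and 32.8% of genes were called higher and 48.4% lower. On that scale 26 cytosolic genes were called higher and 8 lower (median 0.20), and 37 mitochondrial genes higher and 10 lower (median 0.23). The shares called higher were 38.2% and 49.3%. In the cytosolic small subunit 9 of 27 (33.3%) were called higher, near the share of all genes. Genes with transcripts under 1 kb, members included, had a median log2 fold change of 0.19 (42.9% called higher and 23.3% lower), genes of 1 to 2 kb had 0.20 (47.3% and 29.9%), and genes of 4 kb and over had −0.17 (33.8% and 48.8%). The median transcript of the cytosolic genes was 681 bases long and that of the mitochondrial genes 1221 bases. SMC-TAZ4SA replicate 1 also stood above its group mates for genes under 1 kb (by 0.31 on the log2 scale) and below them for genes of 4 kb and over (by −0.11). The part of library scale and of transcript length in the members' change was not tested.

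**Figure D4:**
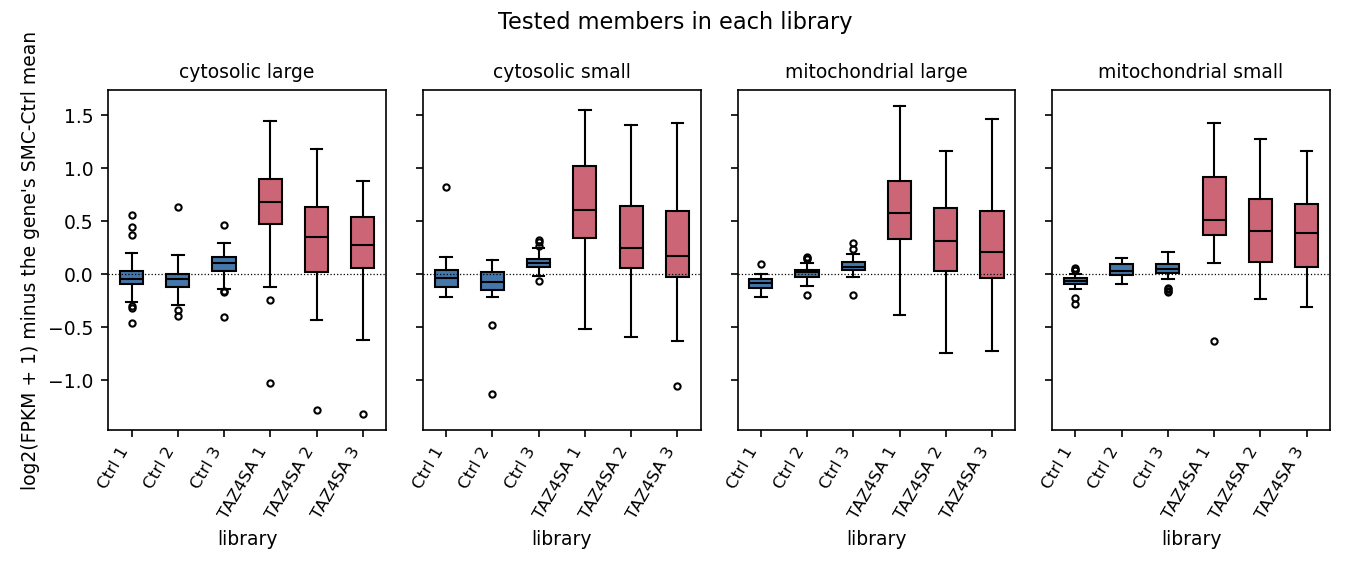
For the members tested in each subunit class, log2(FPKM + 1) in each of the 6 libraries minus the gene's mean over SMC-Ctrl (boxes: quartiles and median over genes, whiskers: to the farthest gene within 1.5 times the box, circles: genes beyond). SMC-TAZ4SA replicate 1 is the highest library in every class, and replicates 2 and 3 are also above SMC-Ctrl in their medians.

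As sums, the cytosolic genes held 8855, 9694 and 9999.9 FPKM in SMC-Ctrl and 15024, 11975 and 11429 FPKM in SMC-TAZ4SA. This was 3.11%, 3.26% and 3.42% of the library's total FPKM in SMC-Ctrl and 4.15%, 3.61% and 3.52% in SMC-TAZ4SA. The groups did not overlap, but the lowest SMC-TAZ4SA library was close to the highest SMC-Ctrl library. The mitochondrial genes held 0.813%, 0.849% and 0.883% in SMC-Ctrl and 1.05%, 0.975% and 0.940% in SMC-TAZ4SA. These sums were not tested, and the cytosolic sum rests on the few highest genes.

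The 2 cytosolic genes of the 5S ribonucleoprotein were among the 4 cytosolic genes that fell. Rpl5 and Rpl11 bind 5S rRNA, join the large subunit together with it, and as free proteins bind and inhibit MDM2. Rpl11 was at 45.4, 45.4 and 54.0 FPKM in SMC-Ctrl and at 23.0, 19.2 and 18.6 FPKM in SMC-TAZ4SA. Every SMC-TAZ4SA library was thus far below every SMC-Ctrl library, and the fall was the largest of all members (log2 fold change −1.21, SE 0.10, limma adjusted p = 9.93e-06). Leaving out any 1 library gave log2 fold changes between −1.30 and −1.13, all called. Rpl5 was at 15.2, 16.2 and 17.6 FPKM and at 14.9, 11.8 and 10.2 FPKM (log2 fold change −0.39, SE 0.13, adjusted p = 0.0201). Its groups did not overlap, but SMC-TAZ4SA replicate 1 was close to the lowest SMC-Ctrl library. The call was lost on leaving out replicate 2 or 3 of either group (adjusted p up to 0.077). All the coding words of both genes are shared with pseudogenes, 8 for Rpl11 and 6 for Rpl5. These pseudogenes had no row among those used here.

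The other cytosolic genes that fell were Rpl3 and Rps15a. Rpl3, a large-subunit protein that reaches towards the peptidyl transferase centre, was at 10.2, 9.29 and 10.3 FPKM in SMC-Ctrl and at 8.24, 8.21 and 7.14 FPKM in SMC-TAZ4SA (log2 fold change −0.30, SE 0.075, adjusted p = 0.00615). The groups were apart, and 93.4% of its words were shared with other genes. Its paralogue Rpl3l was below the filter.

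The ribosomal stalk rose as a whole. Rplp0, Rplp1 and Rplp2 form the stalk of the large subunit, which recruits the GTPases of elongation. Rplp0 was at 113, 120 and 126 FPKM in SMC-Ctrl and at 253, 192 and 194 FPKM in SMC-TAZ4SA (log2 fold change 0.82, SE 0.12, adjusted p = 0.00028). Rplp1 was at 84.8, 88.2 and 91.5 FPKM and at 160, 147 and 139 FPKM (0.74, SE 0.075, adjusted p = 3.14e-05). In both genes every SMC-TAZ4SA library was above every SMC-Ctrl library. Rplp2 rose less (0.44, SE 0.076, adjusted p = 0.00082), on the low level given above. Of 8 cytosolic genes whose proteins line or surround the exit tunnel, 7 rose and 1 did not pass (median log2 fold change 0.60), against 40.7% of all genes called higher. With libraries at the same total 3 of the 8 rose, near the 32.8% of all genes.

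The largest rises of the cytosolic large subunit beside the stalk were those of Rpl36 and Rpl27, both proteins found in eukaryotic but not bacterial ribosomes. Rpl36 was at 1.65, 4.65 and 2.26 FPKM in SMC-Ctrl and at 8.97, 7.30 and 5.70 FPKM in SMC-TAZ4SA (1.17, SE 0.27, adjusted p = 0.00414). Rpl27 was at 8.23, 8.90 and 10.3 FPKM and at 24.7, 19.7 and 17.4 FPKM (1.08, SE 0.13, adjusted p = 9.24e-05). The groups of both were apart although Rpl36 varied widely within SMC-Ctrl. Rpl36 shared 88.4% and Rpl27 all of its words with other genes.

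Among the 3 highest genes of that subunit the rises were smaller. Rpl8 went from 1058 ± 101 to 1557 ± 268 FPKM (SD, n = 3 each; log2 fold change 0.55, SE 0.16, adjusted p = 0.0126). Rpl4, which lines the exit tunnel, went from 725 ± 43.8 to 976 ± 154 FPKM (0.42, adjusted p = 0.0218), and Rpl32 from 593 ± 38.0 to 828 ± 163 FPKM (0.46, adjusted p = 0.0207). The calls of Rpl4 and Rpl32 were lost with libraries scaled to the same total (adjusted p = 0.0597 and 0.0509). Both were also lost on leaving out SMC-Ctrl replicate 1 or 2, and that of Rpl8 on leaving out SMC-Ctrl replicate 1.

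In the small subunit, Rps21, Rps27a and Rps2 rose most. Rps21 was at 349, 324 and 363 FPKM in SMC-Ctrl and at 1002, 873 and 829 FPKM in SMC-TAZ4SA (1.38, SE 0.11, adjusted p = 6.8e-06). It stood at a high level with 12% of its words shared, and all 3 SMC-TAZ4SA libraries were over 2 times the highest SMC-Ctrl library. Rps27a, which is made as a fusion with ubiquitin, was at 2.603, 2.07 and 2.83 FPKM and at 9.18, 6.73 and 8.34 FPKM (1.37, SE 0.12, adjusted p = 1.33e-05). All of its coding words were shared with other genes. Rps2, a protein at the entry of the mRNA channel, was at 334, 369 and 327 FPKM and at 592, 913 and 846 FPKM (1.17, SE 0.17, adjusted p = 0.000269). Here SMC-TAZ4SA replicate 1 was the lowest of its group, contrary to most members. Of the words of Rps2, 76.15% were shared with other genes.

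Of the other abundant small-subunit genes, Rps14 and Rps9 did not pass the test, while Rps27l, given above, rose. Rps14 was at 619, 789 and 757 FPKM in SMC-Ctrl and at 1152, 782 and 789.9 FPKM in SMC-TAZ4SA (0.31, SE 0.18, adjusted p = 0.142). Its groups overlapped, with SMC-TAZ4SA replicate 1 above all other libraries. Rps9 was at 740 ± 35.7 and 718 ± 124 FPKM (−0.06, SE 0.14, adjusted p = 0.722).

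The cytosolic genes with mostly unshared sequence were counted apart. Of the 16 tested genes with under 50% of words shared, 8 rose and 8 did not pass (median log2 fold change 0.37), where 40.7% of all genes were called higher and 39.7% lower. Of the 52 with at least 50% shared, 33 rose and 4 fell, with a median of 0.43. Without SMC-TAZ4SA replicate 1 the counts were 8 higher and 2 lower (median 0.22) and 30 higher and 5 lower (median 0.29). With libraries at the same total they were 6 and 2 (median 0.15) and 20 and 6 (median 0.23), where 32.8% of all genes were called higher and 48.4% lower. The difference between these groups was not tested.

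**Figure D5:**
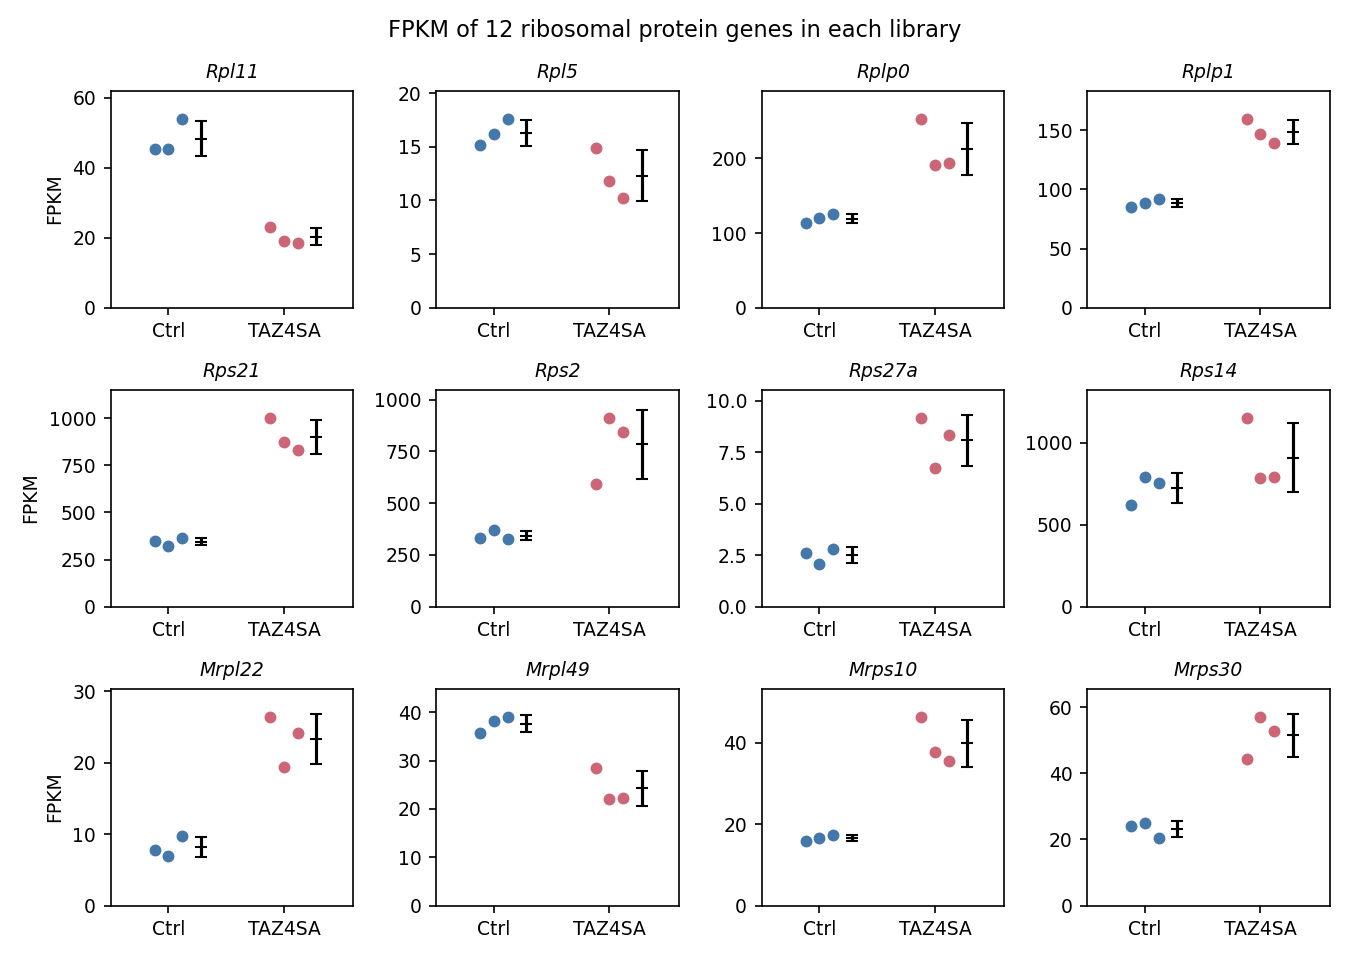
FPKM in each library (points, in order of replicate) of 12 ribosomal protein genes in SMC-Ctrl and SMC-TAZ4SA, with bars for the mean and SD of 3 libraries. Rpl11 falls from 45.4 to 54.0 FPKM to 18.6 to 23.0 FPKM, Rps21, Mrpl22 and Mrps10 rise with no overlap, and Rps14 overlaps.

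Among the mitochondrial large-subunit genes, Mrpl22, Mrpl32 and Mrpl45 rose most. Mrpl22, the counterpart of a bacterial protein that lines the exit tunnel, was at 7.84, 6.97 and 9.78 FPKM in SMC-Ctrl and at 26.4, 19.4 and 24.1 FPKM in SMC-TAZ4SA (1.40, SE 0.14, adjusted p = 2.84e-05). Mrpl32, which is matured by the mitochondrial m-AAA protease, was at 29.7, 31.8 and 36.4 FPKM and at 93.5, 64.7 and 64.0 FPKM (1.14, SE 0.15, adjusted p = 0.00017). In both, every SMC-TAZ4SA library was well above SMC-Ctrl. Mrpl45, which ties the mitochondrial ribosome to the inner membrane, went from 13.2 ± 0.4998 to 27.3 ± 4.05 FPKM (0.98, SE 0.10, adjusted p = 3.29e-05).

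The 3 that fell were Mrpl49, Mrpl50 and Mrpl34. Mrpl49 and Mrpl50 are proteins that bacterial ribosomes lack, and Mrpl34 has a bacterial counterpart. Mrpl49 was at 35.8, 38.1 and 39.1 FPKM in SMC-Ctrl and at 28.5, 22.1 and 22.4 FPKM in SMC-TAZ4SA (−0.62, SE 0.10, adjusted p = 0.000611). Its groups were apart and none of its coding words was shared. Mrpl50 went from 30.6 ± 1.25 to 25.8 ± 2.58 FPKM (−0.24, adjusted p = 0.023), a call that was lost on leaving out replicate 2 or 3 of either group. Mrpl34 went from 89.6 ± 1.41 to 76.4 ± 4.21 FPKM (−0.23, SE 0.065, adjusted p = 0.012).

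The most abundant mitochondrial large-subunit genes rose. Mrpl33 was at 86.5, 110.3 and 104 FPKM in SMC-Ctrl and at 233, 188 and 154 FPKM in SMC-TAZ4SA (0.92, SE 0.16, adjusted p = 0.000776), with groups apart. Mrpl52 went from 82.2 ± 15.6 to 136 ± 21.5 FPKM (0.72, adjusted p = 0.00285) and Mrpl13 from 102 ± 5.66 to 135 ± 27.5 FPKM (0.38, adjusted p = 0.0299). The call of Mrpl13 was lost on leaving out any 1 of the SMC-Ctrl libraries and with libraries at the same total (adjusted p up to 0.0934 and 0.153).

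Of the Mrps genes, Mrps10 and Mrps30 rose most. Mrps10, the counterpart of a bacterial protein of the small-subunit head, was at 15.9, 16.7 and 17.3 FPKM in SMC-Ctrl and at 46.3, 37.6 and 35.5 FPKM in SMC-TAZ4SA (1.20, SE 0.10, adjusted p = 9.03e-06). Mrps30 was at 24.1, 24.9 and 20.4 FPKM and at 44.3, 57.1 and 52.9 FPKM (1.12, SE 0.11, adjusted p = 2.78e-05). In both the SMC-TAZ4SA libraries stood well above SMC-Ctrl, with replicate 1 the highest for Mrps10 and the lowest for Mrps30. Of the most abundant genes, Mrps15 rose from 45.8 ± 1.75 to 70.1 ± 5.11 FPKM (0.60, SE 0.072, adjusted p = 8.95e-05), while Mrps21 was at 83.4 ± 4.67 and 88.9 ± 22.02 FPKM with overlapping groups (0.06, adjusted p = 0.713).

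The 3 genes of the Mrps18 family encode related proteins at different places of the mitochondrial ribosome. Mrps18b was at 22.7, 26.7 and 25.5 FPKM in SMC-Ctrl and at 57.6, 44.6 and 41.2 FPKM in SMC-TAZ4SA (0.90, SE 0.13, adjusted p = 0.000229). Mrps18c went from 51.4 ± 3.26 to 70.7 ± 16.6 FPKM (0.43, SE 0.15, adjusted p = 0.0285) and Mrps18a from 40.5 ± 1.69 to 48.4 ± 7.24 FPKM (0.24, SE 0.10, adjusted p = 0.0592). The groups were apart for all 3. The call of Mrps18c was lost with libraries at the same total (0.22, adjusted p = 0.119) and on leaving out SMC-Ctrl replicate 1 or 2, and Mrps18a passed on leaving out SMC-TAZ4SA replicate 2 or 3.

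Mitochondrial ribosomal proteins with and without a bacterial counterpart were also counted apart. Of the 45 tested with a counterpart, 30 rose and 1 fell, with a median log2 fold change of 0.56. Of the 30 without, 14 rose and 2 fell, with a median of 0.25. Over all genes 40.7% were called higher, which is near the share of the latter group, and 39.7% lower. Without SMC-TAZ4SA replicate 1 the medians were 0.45 and 0.18, and with libraries at the same total they were 0.37 and 0.06, against −0.18 over all genes. The difference was not tested.

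The starts of the genes were read for the pyrimidine run from which the 5' TOP element takes its name. RefSeq start windows on GRCm38.p6 were found for 126 of the 155 genes (59 cytosolic and 67 mitochondrial), with the first listed start of a gene used. A run was counted when a C followed by at least 4 pyrimidines began within 5 bases of the annotated start. It was present in 27 of 59 cytosolic windows (45.8%), in 15 of 67 mitochondrial windows (22.4%) and in 18.5% of all 27025 windows. Shown are windows of 30 bases around the start (10 before it and 20 from it on), 5′ to 3′ on the gene's strand, for members named above for a large change, with the run in capitals where there is one. Rps21 is at chr2:180257369-180257398, Rps2 at chr17:24720053-24720082, Rps15a at chr7:118116128-118116157, Mrpl45 at chr11:97315706-97315735, Rpl11 at chr4:136053374-136053403 and Mrpl49 at chr19:6057736-6057765.
Rps21: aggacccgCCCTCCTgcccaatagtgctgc
Rps2: gtcgagatctcgcgCTTCTTggagcactat
Rps15a: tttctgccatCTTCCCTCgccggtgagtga
Mrpl45: cgcgcgCCCCTCCCCTggagagcgtgcgcg
Rpl11: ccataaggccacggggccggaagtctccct
Mrpl49: cgcatatgacactcagttgaggcgccaaga

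Both genes that rose and genes that fell had the run, and some of each lacked it. Among all genes tested, 40.7% were called higher and 39.7% lower. Of the 23 tested cytosolic genes with it, 14 rose and 1 fell (median log2 fold change 0.41), and of the 25 without it, 17 rose and 2 fell (0.47). Of the mitochondrial genes, 10 of 15 with the run rose and 5 did not pass (0.62), and 29 of 51 without it rose and 3 fell (0.42). A match is a description of the letters, and annotated starts can be off by some bases.

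In the 300 bases around the start (250 before and 50 after), 3 further letter strings were searched on both strands. The string CCGGAAG, as in sites of ETS factors, was in 39.0% of cytosolic and 34.3% of mitochondrial windows against 9.12% of all windows. The core motif of NRF1, searched with 1 base left free, was in 17.9% of mitochondrial and 5.08% of cytosolic windows against 4.78% of all. CACGTG, as in sites of MYC, was in 8.47%, 7.46% and 7.24%. With CCGGAAG 14 of 20 cytosolic genes rose and 1 fell, and 14 of 23 mitochondrial genes rose and 1 fell. Without it 17 of 28 rose and 2 fell, and 25 of 43 rose and 2 fell. Over all genes 40.7% were called higher and 39.7% lower.

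Genes that make ribosomes or work with them were counted from lists of known members. Of 114 genes of RNA polymerase I and nucleolar ribosome assembly, 98 rose and 2 fell, with a median log2 fold change of 0.66, where 40.7% of all genes were called higher and 39.7% lower. With libraries at the same total 82 rose and 8 fell (median 0.45), against 32.8% and 48.4% of all genes and a median of −0.18. Ddx27, a helicase of large-subunit rRNA maturation, went from 19.2 ± 1.12 to 86.2 ± 5.28 FPKM and Nop2, an rRNA methyltransferase, from 45.1 ± 2.56 to 114 ± 11.2 FPKM (log2 fold changes 2.11 and 1.31). Eif6, which keeps the large subunit from joining too early, fell from 205 ± 11.1 to 138 ± 12.1 FPKM (−0.57). These genes thus had a higher median than either family of ribosomal protein genes, a difference that was not tested.

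Of 63 cytosolic translation factors, 46 rose and 8 fell (median 0.46), against 40.7% and 39.7% of all genes. At the same total 33 rose and 9 fell (median 0.24), against 32.8% and 48.4%. Eif4ebp1, a repressor of cap binding that mTOR phosphorylates, went from 41.1 ± 1.72 to 120 ± 6.73 FPKM (1.52), and Eif4ebp2, its relative, from 73.9 ± 6.34 to 31.8 ± 4.54 FPKM (−1.20). Of 53 genes of mitochondrial translation and mitoribosome assembly, 21 rose and 9 fell (median 0.10), a share called higher near the 40.7% of all genes. With libraries at the same total 18 rose and 19 fell, with a median of −0.08 against −0.18 over all genes.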

How the data were processed

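RNA of 3 SMC-Ctrl and 3 SMC-TAZ4SA libraries was sequenced as read pairs and, per the study's methods and the submitters' processing notes, mapped to mm10 with STAR 2.6. The authors deposited FPKM values, 1 column per library. No source used here gives the FPKM tool, its annotation, the use of strand or the counting of reads with several matches. FPKM keeps no read number, so depth is unknown and no counting interval is given. Of 23361 symbols, 254 stood on several lines and were left out. None was a member.

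Genes at 1 FPKM or more in at least 3 of 6 libraries (12141) were tested on log2(FPKM + 1) with limma 3.58.1 (R 4.3.3; group as the only term, empirical Bayes with trend, 2-sided, Benjamini-Hochberg adjustment over all tested genes, threshold 0.05). The fit was tested on simulated data with independent noise and few changed genes. Most genes were called here, so that test does not cover this setting. Named genes were the 3 largest rises and falls per class among called genes with groups apart, the 3 highest per class, those at 0 throughout or below the filter, paralogues, the stalk, the 5S genes, the Mrps18 family, and the 6 calls that moved most without SMC-TAZ4SA replicate 1. Genes named from the other lists, and Rps10, Rpl17, Rps23, Rpl31 and Mrps34, were chosen after their values were seen. Members and lists were chosen with earlier results of these data known.

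Alternatives were a pseudocount of 0.1 FPKM, no filter, a filter of 5 FPKM, 3 other scalings, leaving out each library, a replicate block, no trend, and summed lines of a symbol. Word lengths of 50 and 100 bases and splits at 25% and 75% were added after the data were seen. Figures were drawn with matplotlib 3.10.9. Some genes are not reported here.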

Additional observations from a re-analysis of the deposited data

How the results depend on the processing

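The counts and medians of both families kept their direction under all alternatives. With libraries at the same total, 26 of 68 tested cytosolic genes were called higher (38.2%) and 8 lower (median log2 fold change 0.20). Of 75 tested mitochondrial genes 37 were called higher (49.3%) and 10 lower (median 0.23, and 0.30 with libraries at the same upper quartile). Over all genes at the same total the shares were 32.8% and 48.4%. The same-total scaling divides SMC-TAZ4SA by larger factors and moved the median of all genes to −0.18, and that of the upper quartile moved it to −0.12. Leaving out 1 library gave 29 to 41 higher and 3 to 7 lower calls among the 68 tested cytosolic genes (median 0.29 to 0.49). Among the 75 tested mitochondrial genes it gave 39 to 49 higher and 2 to 6 lower calls (median 0.36 to 0.48). Of all 12141 genes tested, 4559 to 5046 were called higher and 4514 to 5104 lower. The cause of these shifts was not tested. Without a filter (17987 genes tested in all) 33 cytosolic and 41 mitochondrial genes were called higher. With a filter of 5 FPKM (9561 genes tested) 37 and 43 were. The number tested changes with the filter, so these stand as counts only. Across all alternatives 3987 to 5880 of all tested genes were called higher and 3636 to 5973 lower. Among 47 named and tested genes no fold change of a called gene changed sign. At the same total 7 calls were lost and 5 gained, and without a filter 6 were lost. Leaving out SMC-Ctrl replicate 2 lost 9 calls, the most of any library, and leaving out SMC-Ctrl replicate 1 lost 6. Leaving out SMC-TAZ4SA replicate 1 lost 2 and gained 6, and those 6 genes were named for that change. With 50-base words, 36 of 56 tested cytosolic genes with at least 50% shared words were called higher. With 100-base words 27 of 45 were, and with 75-base words 33 of 52, against 40.7% of all genes.

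Replicate numbers did not pair the libraries: the correlations of same-numbered libraries' deviations were −0.25, −0.06 and −0.31. With the replicate block 37 of 68 tested cytosolic genes were called higher and 4 lower, and 43 of 75 mitochondrial genes higher and 2 lower. The block changed the calls of 6 named genes, with 5 lost and 1 gained.

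With 3 libraries per group and unknown depth, levels under a few FPKM are the least certain, and shared sequence touches most cytosolic genes.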

Other observations

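Ribosomal proteins whose symbols the naming rule does not match were counted apart. Of 8 tested genes, 6 rose and 2 did not pass (median log2 fold change 0.53), where 40.7% of all genes were called higher and 39.7% lower. Gnb2l1, which encodes the small-subunit protein RACK1, was at 544, 631 and 658 FPKM in SMC-Ctrl and at 1097, 878 and 852 FPKM in SMC-TAZ4SA (0.62). Rpsa, a small-subunit protein also known as a laminin receptor, was at 65.6, 69.5 and 61.9 FPKM and at 96.9, 85.5 and 93.9 FPKM (0.48). In both genes the groups were apart.

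Of 8 mitochondrial ribosomal proteins with other names, 5 rose and 3 did not pass (median 0.45), beside the same shares of all genes. Ptcd3, an RNA-binding protein of the small subunit, was at 29.3, 29.1 and 31.6 FPKM and at 55.3, 48.4 and 48.6 FPKM (0.74). Dap3, a GTP-binding protein of the small subunit, was at 14.5, 15.6 and 14.8 FPKM and at 15.1, 11.8 and 11.9 FPKM, with overlapping groups (−0.20). It was called lower without SMC-TAZ4SA replicate 1 (−0.31) and with libraries at the same total. Of 17 tested cytosolic genes linked to Diamond-Blackfan anaemia, a disease of ribosome production, 10 rose and 2 fell (Rpl5 and Rpl11), with a median of 0.34, where 40.7% of all genes were called higher and 39.7% lower. With libraries at the same total 5 rose and 3 fell, where 32.8% of all genes were called higher and 48.4% lower.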
